A study of Homo sapiens with 6 samples.

Results

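The cilia and intraflagellar transport genes examined here are the protein-coding genes of the deposited table whose official symbol begins with CFAP, IFT, BBS, TCTN or DYNC2. RefSeq lists 84 such genes, and 57 of them are among the 12486 genes of the table: 26 CFAP, 17 IFT, 8 BBS, 3 TCTN and 3 DYNC2 genes. The other 27, including the dynein-2 heavy chain gene DYNC2H1 and the transport gene IFT27, were not analysed here. RNA-seq had been performed on K562, a line of human chronic myeloid leukemia cells with the Bcr-Abl fusion oncogene. The cells stably expressed, from a lentiviral vector, either an shRNA against luciferase (sh-luc, the control) or an shRNA against the long noncoding RNA that the labels call lncRNA-up91 and the paper lncRNA-IUR1 (sh-up91). Each group had 3 libraries of total RNA, 1 without a replicate number and the others numbered r1 and r2, and the comparison asks which transcripts differ once this lncRNA is silenced. The labels name 1 shRNA construct per group, and both groups share the lentiviral vector and the Bcr-Abl background. The level of the targeted lncRNA was not analysed here, so the knockdown itself was not checked.

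These genes were chosen from symbols, but not without regard to measured values. The table holds only genes selected by their spread, an SD of at least 0.05 FPKM over the same 6 libraries, and CFAP95 and CFAP126 were already known from earlier results of these data to differ between the groups. The members' values are therefore given as a description. Their rows in the fit across all genes are used for counts set beside the same counts over all genes, and no p-value is given for a single member. Those just inside the limit were CFAP184 (SD 0.0524 FPKM), CFAP157 (0.0546 FPKM) and CFAP144 (0.0623 FPKM), and the genes just outside it are not analysed here. FPKM counts sequenced fragments relative to transcript length and library size, so levels of different genes can be set side by side. Differences between groups were taken on log2(FPKM + 1), which understates the change of genes at low levels. This is strongest below about 1 FPKM but reaches further. For CFAP95, at a mean of 1.91 FPKM, the difference was 0.42, against 0.61 with a pseudocount of 0.1. Medians over groups of genes at unlike levels are therefore reduced to unlike degrees. Of the 57 genes, 56 had a mean of at least 0.1 FPKM and entered the comparison, and CFAP144 (mean 0.07 FPKM) did not.

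The cilium is a microtubule-based projection that grows from the mother centriole, and in many cells it acts as an antenna for signals such as hedgehog. Its parts are carried along the axoneme by intraflagellar transport, in which the IFT-B complex travels outward with kinesin-2 and the IFT-A complex returns with the motor dynein-2. The BBSome is an adaptor that moves membrane proteins on these trains, and the tectonic proteins belong to the gate at the ciliary base called the transition zone. CFAP proteins (cilia- and flagella-associated proteins) mostly build the axoneme of motile cilia and sperm tails. Blood cells, K562 included, are not multiciliated, and several of these proteins also have duties at centrosomes, the Golgi and other membranes.

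The transcription factors of the RFX family are known regulators of ciliary genes and bind a palindrome called the X-box. Its letters were searched, on either strand, in the RefSeq promoter windows of GRCh38.p14, which run from 250 bases before to 50 bases after each annotated start. The strict form was GTTNCC, 2 bases of any kind and GGNAAC. The relaxed form was GTTNCC, 3 bases of any kind and GNAAC, and it includes the strict one. Windows were found for 51 of the 57 genes, and 5 genes held the relaxed form (9.80%), compared with 276 of all 27305 genes with a window (1.01%) and 124 of 10088 genes of the table (1.23%). The strict form was found in 3 of the 51 (5.88%), against 0.593% of all genes. The 5 matches are printed because the X-box is the known site of RFX factors, each within 30 bases, on the strand of the gene, the X-box in capitals:

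CFAP45: ggctagtgGTTGCCAAGGTAACgcgtcaac
CFAP20DC: gtcccgcgGTTGCCTGGGCAACgctacgtc
IFT70A: gttgccctGTTGCCGTGGTAACcgcacgca
IFT70B: gttgctctGTTGCCATAGTAACcgcaccca
CFAP119: aagaggcaGTTCCCATAGTAACtgacaccg

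The first 3 are strict matches and the last 2 relaxed ones. All 5 genes lie on the minus strand. The coordinates are those of the printed 30 bases, and the distances those of the first capital. The match of CFAP45 (chr1:159900163-159900192) begins 19 bases before the annotated start, that of CFAP20DC (chr3:59050148-59050177) 144 bases before it and that of CFAP119 (chr16:30762102-30762131) 61 bases before it. IFT70A (chr2:177618719-177618748) and IFT70B (chr2:177552781-177552810) are near-copies of each other, and their matches begin 2 bases after and 6 bases before their starts. A single arm of the palindrome, GTTNCC on either strand, was counted as well, although this had not been planned. It was present in 43 of the 51 cilia genes (84.3%) and in 5560 of 10088 genes of the table (55.1%). It was found in 19 of 23 CFAP genes and in 24 of 28 IFT, DYNC2, BBS and TCTN genes. The median GC content of the windows was 61.0% for the cilia genes and 65.0% for the genes of the table. These are matches of letters, and binding was not measured.

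The levels of the listed genes in K562 spanned from under 1 to about 100 FPKM, and those of genes outside the table were not measured here. Among the 56 genes compared, 12 had a mean under 1 FPKM, 30 lay from 1 to 10 FPKM and 14 were at 10 FPKM or more. The median was 3.87 FPKM, against 10.6 FPKM for all 12276 genes compared. On the transport side, 31 of the 33 IFT, DYNC2, BBS and TCTN genes of RefSeq were in the table, with a median of 4.90 FPKM and 1 gene, IFT70A, under 1 FPKM. Of the 51 CFAP genes 26 were in the table, the median of the 25 compared was 1.78 FPKM, and 11 of them were under 1 FPKM.

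**Figure D1:**
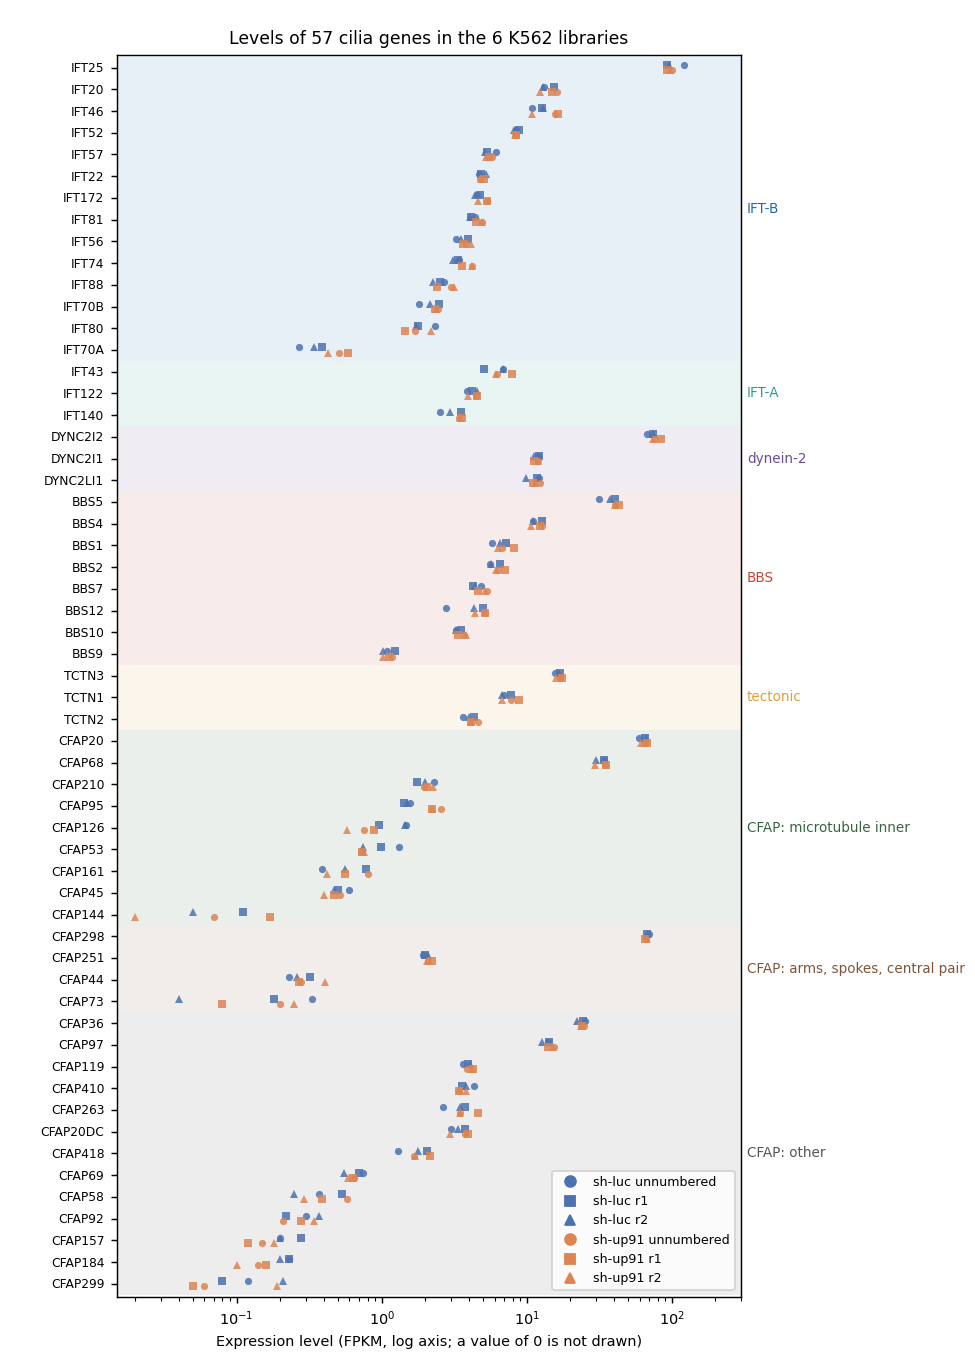
Level of each of the 57 cilia genes in each library (FPKM, log horizontal axis), genes grouped by role (right margin) and ordered by mean within a role; blue marks are the 3 sh-luc and orange marks the 3 sh-up91 libraries. IFT25, DYNC2I2, CFAP20 and CFAP298 stand at the right with means from 64.3 to 100.2 FPKM. The genes with a mean under 1 FPKM are CFAP genes and IFT70A. The marks of both groups lie on top of each other for most genes.

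All 14 erythroid and Bcr-Abl line markers fixed for this purpose were in the table, with GATA1 at a mean of 193.5 FPKM and HBG2 at 2915 FPKM. Of these 14, 12 had a lower mean in sh-up91 (median log2 difference -0.062) and 11 did under quantile normalization or without sh-luc unnumbered, none passed the threshold, and their part in the results on the cilia genes was not tested. Of 17 genes fixed as markers of multiciliated cells, 5 were in the table (MCIDAS, TPPP3, CAPS, TUBB4B and TUBA1A), and FOXJ1, TEKT1, DNAH5 and DNAI1 were not among them. The tubulin genes TUBB4B (232.2 FPKM) and TUBA1A (10.25 FPKM) are not specific to such cells. Genes outside the table were not measured here, so this list does not show which cell types were present. Of 10 lymphoid markers 6 were listed, and their FPKM summed to between 5.22 and 7.15 per library. Of 8 genes that mark HEK293T cells, in which lentivirus is commonly packaged, 3 were listed: GAL (146.2 FPKM), TBX18 (15.8 FPKM) and LHX1 (0.260 FPKM). The 6 libraries were alike across genes (Pearson's r of 0.9903 to 0.9984 between pairs of libraries), and sh-luc unnumbered stood apart on the first principal component, at -19.8 against scores of -3.75 to 13.0 for the other libraries. In that library the FPKM of 23 integrated stress response genes summed to 1557, against 2463 to 3302 in the other 5. Sequencing depth is not stated in the sources used here, so the number of fragments behind a low FPKM value is unknown.

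Between sh-up91 and sh-luc cells no cilia gene changed by the criterion applied to the whole table. With limma over the 12276 genes and Benjamini-Hochberg adjustment, 0 of 56 cilia genes had an adjusted p-value under 0.05, as had 0.0% of all genes, and the smallest adjusted p was 0.930. At an unadjusted p under 0.05 there were 4 cilia genes, 3 higher and 1 lower in sh-up91, beside 2.65% of all genes. The libraries of both groups did not overlap for 8 cilia genes (14.3%), against 7.07% of all genes. Of these, 4 were higher (background 4.04%) and 4 lower (background 3.03%) in sh-up91. Among the lower ones, the SD in sh-luc and sh-up91 was 0.017 and 0.031 FPKM for CFAP184, and 0.046 and 0.030 FPKM for CFAP157. Both thus passed the limit of 0.05 FPKM for the table only through the difference between groups. CFAP95 and CFAP126 were known beforehand to differ, so the count is a description. Under median-ratio scaling 6 of the 8 and under quantile normalization 5 of the 8 still had no overlap, namely CFAP95, IFT70A, CFAP126, CFAP157 and CFAP184 in both, and IFT74 in the first. By direction alone, 39 of the 56 were higher in sh-up91 and 17 lower (69.6% higher, against 58.0% of all genes), and under quantile normalization this split was 33 to 23 (58.9% higher, against 48.9% of all genes). The median log2 difference was 0.043 for the cilia genes and 0.019 for all genes, and the median absolute difference 0.084 and 0.062. In RNA from whole cultures, fewer cells with a transcript and less of it per cell cannot be told apart.

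**Figure D2:**
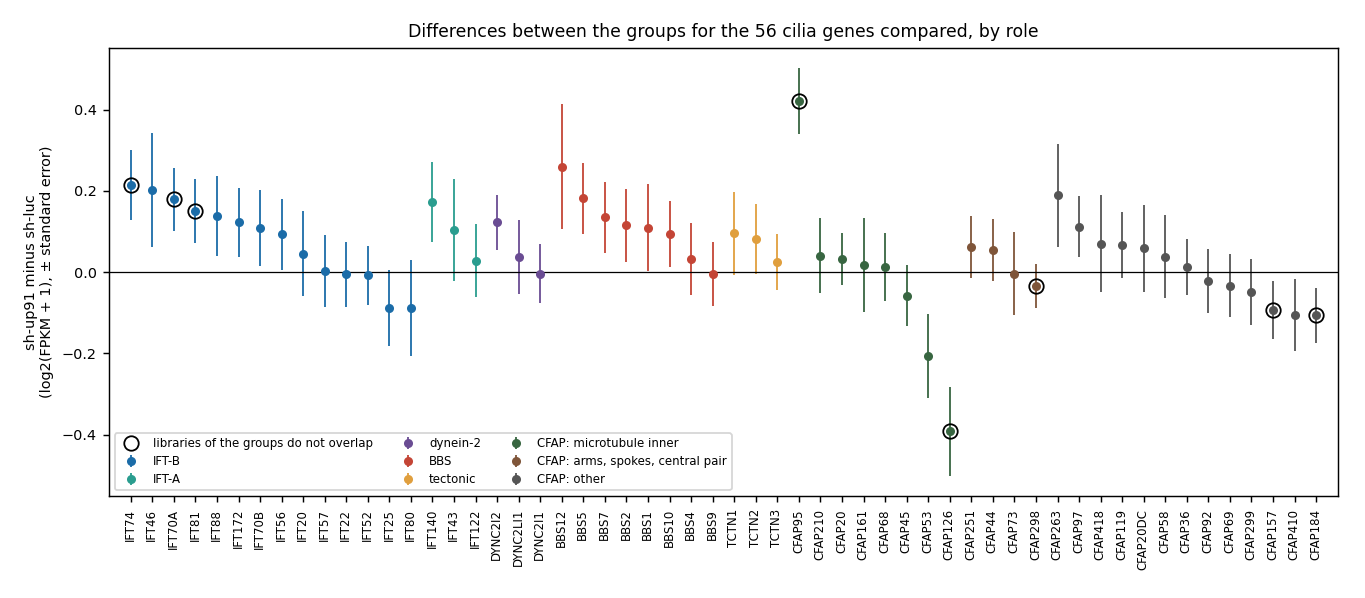
Difference between sh-up91 and sh-luc for the 56 cilia genes compared (vertical axis, log2(FPKM + 1), mean difference ± limma standard error), coloured by role and sorted within each role; black rings mark the 8 genes whose libraries do not overlap between groups. CFAP95 (0.42) and CFAP126 (-0.39) are the outermost points, and the IFT-B, IFT-A, BBS and tectonic genes lie mostly above 0.

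The direction was also counted by family, and the difference between families was not tested. Among the IFT, DYNC2, BBS and TCTN genes 25 of 31 were higher in sh-up91 (80.6%, median log2 difference 0.096), and among the CFAP genes 14 of 25 were (56%, median 0.014). Under quantile normalization these counts were 23 of 31 and 10 of 25, with medians of 0.059 and -0.0035. When genes averaging under 1 FPKM were left out they were 24 of 30 and 11 of 14. Leaving out each library in turn gave 22 to 28 of 31 and 11 to 13 of 25. The mean log2(FPKM + 1) over the 31 transport-side genes was 2.87, 2.96 and 2.89 in sh-luc (unnumbered, r1 and r2) and 3.02, 3.01 and 2.95 in sh-up91, so sh-up91 r2 lay below sh-luc r1 and the groups overlapped. Over the 25 CFAP genes it was 1.87, 1.89 and 1.85 for sh-luc, against 1.88, 1.89 and 1.85 for sh-up91. Over all genes compared it was 3.536, 3.586 and 3.559 against 3.589, 3.584 and 3.574. The library sh-luc unnumbered was the lowest of the 6 for 21 of the 56 cilia genes (37.5%), a share close to that of all genes (38.4%). The library sh-luc r2 was the lowest for 14 (25.0%, against 14.4% of all genes). Without sh-luc unnumbered, 37 of 56 cilia genes were higher in sh-up91 (66.1%, against 52.7% of all genes). The median log2 difference was then 0.033 for the cilia genes and 0.0047 for all genes. The part of the stress response or of library composition in these values was not tested.

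**Figure D3:**
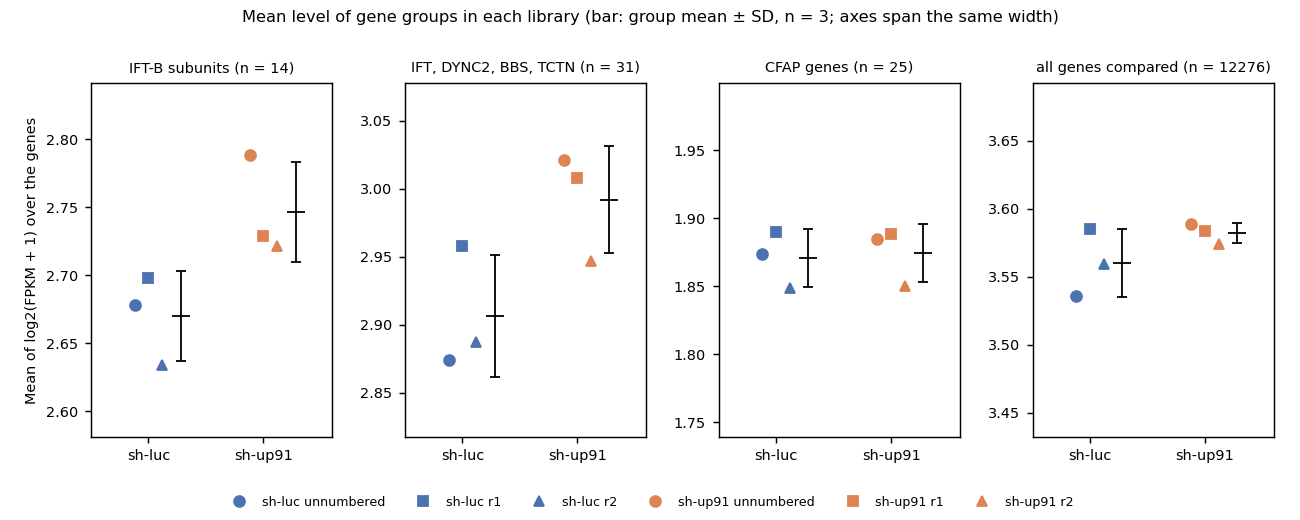
Mean of log2(FPKM + 1) over the 14 IFT-B genes, the 31 IFT, DYNC2, BBS and TCTN genes, the 25 CFAP genes and all 12276 genes in each library (vertical axes of equal span, which do not start at 0); black bars give the mean ± SD of 3 libraries. The IFT-B marks of both groups do not overlap (highest sh-luc 2.70, lowest sh-up91 2.72), and those of the CFAP genes lie at the same height. IFT-B was the only role group whose means did not overlap, and some of the wider ciliary lists described below did not overlap either.

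Of the 14 IFT-B genes 10 were higher in sh-up91 (9 under median-ratio scaling or quantile normalization). The median log2 difference was 0.10 (0.055 under quantile normalization). Without overlap were 3 of the 14 (21.4%), IFT74, IFT81 and IFT70A, against 7.07% of all genes in either direction and 4.04% higher. Under quantile normalization only 1 of the 14, IFT70A, had no overlap, and 6.98% of all genes in either direction. The mean over the 14 was 2.68, 2.70 and 2.63 for sh-luc, against 2.79, 2.73 and 2.72 for sh-up91, so each sh-up91 library lay above each sh-luc library, with a gap of 0.024 between the nearest. The means of all other role groups overlapped between sh-luc and sh-up91. The trait was not particular to IFT-B among the wider ciliary lists described below. The means also did not overlap for the basal body (highest sh-luc 2.470, lowest sh-up91 2.487) and axonemal dyneins (3.004 and 3.006). The same held for ciliogenesis transcription factors (3.088 and 3.095) and hedgehog signalling (2.369 and 2.372), while the other ciliary lists overlapped. These means were taken without rescaling the libraries, whose median-ratio size factors ran from 0.975 (sh-luc unnumbered) to 1.014 (sh-up91 unnumbered).

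IFT74 and IFT81 form a coiled-coil pair at the core of IFT-B that binds tubulin. IFT74 was at 3.39, 3.34 and 3.12 FPKM in sh-luc and 4.18, 3.57 and 4.18 FPKM in sh-up91, a log2 difference of 0.21 ± 0.086 (standard error). IFT81 was at 4.40, 4.12 and 4.08 FPKM in sh-luc and 4.92, 4.49 and 4.91 FPKM in sh-up91, a difference of 0.15 ± 0.079. For both genes all sh-up91 libraries were above all sh-luc libraries, with sh-up91 r1 the lowest of its group. The same place of sh-up91 r1 was seen in 7 of the 14 IFT-B genes and in 37.4% of all genes. IFT74 lies on chromosome 9 (26947110 to 27066134, GRCh38.p14) and overlaps PLAA and LRRC19 in GENCODE, and whether strand was used in counting is not stated in the sources used here. Leaving out any 1 library kept the difference of IFT74 between 0.18 and 0.27 and that of IFT81 between 0.13 and 0.19.

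IFT70A, a subunit of the same core, was at 0.27, 0.39 and 0.34 FPKM in sh-luc and 0.51, 0.59 and 0.43 FPKM in sh-up91, a ratio of means of 1.53. Its libraries did not overlap, yet all lay under 1 FPKM and the nearest were 0.04 FPKM apart. Its near-copy IFT70B had values from 1.80 to 2.47 FPKM in sh-luc and from 2.32 to 2.43 FPKM in sh-up91, which overlapped. Of the 50-base stretches in the IFT70A transcripts of GENCODE, 11.0% also occur in IFT70B, so part of the reads could have been assigned to either gene. IFT70A and IFT70B are the IFT-B genes with an X-box match printed above.

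The remaining IFT-B core genes overlapped between groups. IFT88, which is needed to build the cilium, was at 2.71, 2.54 and 2.26 FPKM in sh-luc and 3.03, 2.42 and 3.14 FPKM in sh-up91. IFT46 was at 10.82, 12.80 and 12.89 FPKM in sh-luc and 15.68, 16.53 and 10.82 FPKM in sh-up91, where sh-up91 r2 equalled the lowest control value. IFT52 differed little, from 8.13 to 8.87 FPKM in sh-luc and from 8.26 to 8.49 FPKM in sh-up91. IFT25, a small heat-shock-like protein that pairs with IFT27, had the highest level of all cilia genes, with 121.2, 93.4 and 96.1 FPKM in sh-luc and 100.4, 92.5 and 97.4 FPKM in sh-up91. Its highest value was that of sh-luc unnumbered, and without that library its log2 difference changed sign to 0.030 from -0.088.

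In the outer part of IFT-B, the large subunit IFT172 was at 4.53, 4.77 and 4.38 FPKM in sh-luc and 5.30, 5.29 and 4.59 FPKM in sh-up91, a log2 difference of 0.12 ± 0.084. IFT80 went the other way in its mean, with 2.34, 1.79 and 1.73 FPKM in sh-luc and 1.71, 1.44 and 2.20 FPKM in sh-up91, a difference of -0.089 ± 0.12. The difference of IFT80 changed sign to 0.0032 without sh-luc unnumbered and to 0.0018 without sh-up91 r1. IFT57 had the same mean in both groups, 5.53 ± 0.567 FPKM and 5.54 ± 0.275 FPKM (SD, n = 3 each). IFT20, which also sits at the Golgi, was at 13.9 ± 1.39 FPKM in sh-luc and 14.4 ± 1.87 FPKM in sh-up91 (SD, n = 3 each). In each of these genes the groups overlapped.

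All 3 IFT-A genes had a higher mean in sh-up91, none without overlap, although IFT122 was lower under quantile normalization, without sh-luc unnumbered and without sh-up91 r1, and IFT43 without sh-luc r1. IFT140 was at 2.54, 3.50 and 2.98 FPKM in sh-luc and 3.44, 3.56 and 3.49 FPKM in sh-up91, so that the sh-up91 libraries sat together at the top of the control range. IFT122 was at 4.22 ± 0.365 FPKM in sh-luc and 4.32 ± 0.349 FPKM in sh-up91, and IFT43 at 6.25 ± 1.05 FPKM and 6.77 ± 0.964 FPKM (SD, n = 3 each). Among the genes of the return motor, the intermediate chain gene DYNC2I2 was at 67.4, 74.7 and 74.0 FPKM in sh-luc and 77.1, 83.7 and 74.7 FPKM in sh-up91. The lowest sh-up91 value, 74.65 FPKM, equalled the highest sh-luc value, and under both other scalings the groups did not overlap. The light intermediate chain gene DYNC2LI1 was at 11.3 ± 1.22 FPKM in sh-luc and 11.6 ± 0.714 FPKM in sh-up91 (SD, n = 3 each).

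Of the 8 BBS genes 7 had a higher mean in sh-up91 (median log2 difference 0.11), and all 8 overlapped between groups. BBS5, the subunit with the highest level, was at 31.75, 40.63 and 37.58 FPKM in sh-luc and 40.49, 43.41 and 40.67 FPKM in sh-up91. BBS12, a chaperonin-like protein that helps assemble the BBSome, had the largest difference of the transport-side genes, 0.26 ± 0.15, from 2.76, 5.02 and 4.31 FPKM in sh-luc and 5.13, 5.19 and 4.43 FPKM in sh-up91. In both genes sh-luc unnumbered was the lowest library, and without it the differences were 0.085 for BBS5 and 0.063 for BBS12. The core subunits BBS1, BBS2 and BBS4 had ratios of means of 1.09, 1.10 and 1.03, and BBS9 one of 0.994 at the lowest level of the family (1.11 FPKM). The tectonic genes TCTN1, TCTN2 and TCTN3 were all higher in their mean, with log2 differences of 0.096, 0.081 and 0.025, and the last was -0.0049 without sh-luc unnumbered. TCTN1 was at 6.98, 7.79 and 6.81 FPKM in sh-luc and 7.77, 8.88 and 6.72 FPKM in sh-up91, so the lowest value of all 6 came from a sh-up91 library.

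The CFAP genes held both extremes. CFAP95 and CFAP126 encode microtubule inner proteins, which line the inside of the doublet microtubules of motile cilia. CFAP95 was at 1.56, 1.42 and 1.49 FPKM in sh-luc and 2.56, 2.21 and 2.24 FPKM in sh-up91, a ratio of means of 1.57 and a log2 difference of 0.42 ± 0.081. CFAP126, also called Flattop, was at 1.47, 0.96 and 1.44 FPKM in sh-luc and 0.76, 0.88 and 0.58 FPKM in sh-up91, a ratio of 0.574 and a difference of -0.39 ± 0.11. The control libraries of CFAP95 were within 0.14 FPKM of each other and the gap to the nearest sh-up91 library was 0.65 FPKM. In CFAP126 the gap was 0.08 FPKM, between sh-luc r1 and sh-up91 r1. Leaving out each library in turn gave 0.37 to 0.45 for CFAP95 and -0.50 to -0.32 for CFAP126. With a pseudocount of 0.1 the differences were 0.61 and -0.72.

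Of the other inner proteins, CFAP53 was at 1.32, 0.99 and 0.74 FPKM in sh-luc and 0.72, 0.73 and 0.76 FPKM in sh-up91, with the groups overlapping at the lower end, and a difference of -0.21 ± 0.10. Under quantile normalization its difference was -0.25 and the groups did not overlap. CFAP20, a seam protein of the doublet that is also found at basal bodies, was at 63.6 ± 3.34 FPKM in sh-luc and 65.1 ± 3.08 FPKM in sh-up91 (SD, n = 3 each). CFAP45, which carries a strict X-box, was at 0.60, 0.50 and 0.47 FPKM in sh-luc and 0.52, 0.47 and 0.40 FPKM in sh-up91. CFAP144 ranged from 0 to 0.11 FPKM in sh-luc and from 0.02 to 0.17 FPKM in sh-up91. In this role 5 of the 8 genes compared were higher in sh-up91, and 3 under quantile normalization.

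Of 17 CFAP genes for dynein arms, radial spokes and the central pair, 4 were in the table. CFAP298, a factor in the assembly of dynein arms, was at 69.52, 67.33 and 67.43 FPKM in sh-luc and 66.71, 65.64 and 67.13 FPKM in sh-up91. Its libraries did not overlap, but the gap was 0.20 FPKM and the ratio of means 0.977. CFAP298 overlaps the readthrough gene CFAP298-TCP10L on the same strand, which was not analysed here. CFAP73, linked to the inner dynein arms, was at 0.33, 0.18 and 0.04 FPKM in sh-luc and 0.20, 0.08 and 0.25 FPKM in sh-up91, as scattered within a group as between groups.

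Among the other 13 CFAP genes 7 were higher and 6 lower in sh-up91 (5 and 8 under quantile normalization). CFAP184 and CFAP263 encode partner proteins of the motile axoneme. CFAP184 was at 0.23, 0.23 and 0.20 FPKM in sh-luc and 0.14, 0.16 and 0.10 FPKM in sh-up91, without overlap, and CFAP263 at 2.63, 3.73 and 3.46 FPKM in sh-luc and 3.49, 4.64 and 3.48 FPKM in sh-up91, with overlap. CFAP157, known from the sperm tail, was at 0.20, 0.28 and 0.20 FPKM in sh-luc and 0.15, 0.12 and 0.18 FPKM in sh-up91, where the nearest libraries were 0.02 FPKM apart. CFAP410, a protein of the ciliary base, was at 4.33, 3.60 and 3.82 FPKM in sh-luc and 3.42, 3.43 and 3.84 FPKM in sh-up91. CFAP36 had the highest level in this group, 24.0 ± 1.55 FPKM in sh-luc and 24.2 ± 0.595 FPKM in sh-up91 (SD, n = 3 each). CFAP299 had the lowest, 0.05 to 0.21 FPKM over the 6 libraries.

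Genes of higher and lower level were also counted apart. Of the 44 cilia genes at 1 FPKM or more, 35 were higher in sh-up91 (79.5%, against 57.2% of all genes at that level), and of the 12 below it 4 were (33.3%, against 62.9%). The variation over the 6 libraries was 28.2% of the mean (median coefficient of variation) for the 12 genes under 1 FPKM and 8.67% for the others, close to those of all genes at these levels (28.5% and 7.58%). With an X-box match in the promoter window, 4 of 5 genes were higher in sh-up91 (median difference 0.067), and without one 33 of 45 (median 0.040). In GENCODE, 28 of 56 members with a gene model overlap at least 1 other protein-coding gene (50%), against 34.3% of all 20046 such genes.

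The wider ciliary machinery was examined through lists without the members above. None of their genes passed the threshold of limma over all genes (adjusted p under 0.05). In the main fit 58.0% of all genes were higher in sh-up91, with a median log2 difference of 0.019. Beside each count of direction stands the count under quantile normalization, where 48.9% of all genes were higher (median -0.0022). Of 22 further components of the transport trains, dynein-2, kinesin-2 and the BBSome, 14 were higher in sh-up91 and 8 lower, with a median log2 difference of 0.039 (11 and 11 under quantile normalization, median 0.00024). The largest differences were those of DYNLT2B, a dynein-2 light chain (0.20 ± 0.15), and TULP3, which brings membrane receptors to the trains (0.20 ± 0.11). In the transition zone and ciliary membrane 20 of 29 were higher, with a median of 0.052 (15 of 29 under quantile normalization, median 0.012), led by B9D1, with 10.92, 13.19 and 11.46 FPKM in sh-luc and 15.46, 14.48 and 12.54 FPKM in sh-up91, and MKS1 (0.18 ± 0.099). At the basal body and its distal appendages 18 of 21 were higher, with a median of 0.069 (15 of 21 under quantile normalization, median 0.022). There CEP19 was at 2.25, 2.26 and 2.26 FPKM in sh-luc and 2.81, 3.40 and 2.46 FPKM in sh-up91, without overlap, and FBF1 differed by 0.21 ± 0.11 with overlap.

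Among the 17 genes of centriole duplication 12 were higher, with a median of 0.032 (10 of 17 under quantile normalization, median 0.0043). The centriole component POC5 did not overlap between groups, with 7.37, 8.38 and 7.62 FPKM in sh-luc and 8.83, 8.62 and 8.48 FPKM in sh-up91, and CPAP, a regulator of centriole length, had a lower mean (-0.13 ± 0.13). Of 37 axonemal dyneins and assembly factors 18 were in the table and 17 were compared, 11 of them higher (9 of 17 under quantile normalization). The dynein light chain DNAL4 was at 2.57, 2.83 and 3.11 FPKM in sh-luc and 3.70, 4.63 and 3.34 FPKM in sh-up91, and PIH1D2 at 1.91, 2.77 and 1.91 FPKM and 2.86, 2.83 and 3.13 FPKM, both without overlap. Of 49 other proteins of the motile axoneme 24 were listed, at a median of 0.900 FPKM, and 17 of the 23 compared were higher, with a median of 0.11 (17 of 23 under quantile normalization, median 0.066). Those with the largest differences were the radial spoke gene RSPH3 (0.27 ± 0.11) and TTLL1 (0.27 ± 0.13), which adds glutamate chains to tubulin, and both overlapped between groups.

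Of 17 transcription factors of ciliogenesis 8 were listed, and 7 of them were higher in sh-up91, with a median of 0.056 (5 of 8 under quantile normalization, median 0.024). RFX2, which binds the X-box, was at 7.02, 10.23 and 9.39 FPKM in sh-luc and 9.22, 10.09 and 9.62 FPKM in sh-up91, so that sh-luc unnumbered was the lowest and the other 5 lay between 9.22 and 10.23 FPKM. MCIDAS, a regulator of multiciliated cells, was at 2.92, 2.62 and 2.90 FPKM in sh-luc and 3.30, 2.89 and 2.95 FPKM in sh-up91. In hedgehog signalling, which runs through the cilium, 13 of 15 genes were higher, with a median of 0.040 (9 of 15 under quantile normalization, median 0.024), and 8 of 15 without sh-luc unnumbered. The receptor gene PTCH1 was at 2.58, 3.47 and 3.76 FPKM in sh-luc and 3.73, 3.94 and 3.67 FPKM in sh-up91. SUFU, an inhibitor of the pathway, was lower without overlap, at 4.13, 3.71 and 3.76 FPKM in sh-luc and 3.50, 2.86 and 3.65 FPKM in sh-up91. All 23 genes of the integrated stress response list had a higher mean in sh-up91, with a median of 0.34 (23 of 23 under quantile normalization, median 0.32) and with overlap in every one. Without sh-luc unnumbered the count was 22 of 23 and the median 0.054.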

How the data were processed

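RNA-seq libraries of K562 cells expressing sh-luc or sh-up91 (3 per group) were compared. Adaptor trimming, masking of poor or low-complexity sequence and mapping to hg38 were done by the authors, who state RPKM from samtools 0.1.19, whereas the columns of the deposited table are named FPKM. The FPKM values deposited by the authors have 2 decimals. The table also holds, per the file headers, a standardised score per gene and library, which matched the z-score of the FPKM within 2.2e-14, with a cluster number and a membership fraction deposited by the authors. These were not used.

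Entrez identifiers were matched to RefSeq symbols (12363 of 12486). The 12276 genes averaging 0.1 FPKM or more entered a limma 3.58.1 fit (R 4.3.3, eBayes with a trend) on log2(FPKM + 1), with Benjamini-Hochberg adjustment over all of them. FPKM carry no depth, so no count model was used, and 3 libraries against 3 cannot give an exact permutation p under 0.1. The methods speak of independent groups of cells. Libraries of the same number showed no common pairing (correlation of deviations 0.044, 0.39 and -0.34 for unnumbered, r1 and r2). With sh-luc unnumbered apart from the other libraries, these correlations cannot exclude a pairing. The main fit did not pair the libraries, and a replicate block was run as an alternative.

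The members, role groups and lists were chosen with earlier results of these data known. Named were the 6 members per direction with the largest differences, those without overlap, the highest and lowest of each role, the smallest and largest SD, genes fixed for their role, CFAP95 and CFAP126, and the 2 largest differences of each list. IFT70B, CFAP45, CFAP20DC and CFAP119 were named afterwards, for their promoter match. Positions and promoter windows are from RefSeq GRCh38.p14 and gene overlaps from GENCODE release 44. Python 3.11.15, numpy 2.4.6, pandas 2.3.3 and matplotlib 3.10.9 were used.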

Additional observations from a re-analysis of the deposited data

How the results depend on the processing

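Under a pseudocount of 0.1, no filter, a mean of at least 1 FPKM, median-ratio scaling, quantile normalization, a replicate block, eBayes without a trend and each library left out in turn, 0 cilia genes and 0 genes of the table were called. An unmoderated linear model with unadjusted p under 0.05 gave 344 of 12276 genes and 6 of 56 cilia genes. The members were chosen with earlier results known, so this count is a description. With the replicate block, 39 cilia genes were higher in sh-up91, the median log2 difference was 0.043 and 533 genes of the table had an unadjusted p under 0.05 in place of 325.

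The count of cilia genes without overlap was 5 of 44 at a mean of at least 1 FPKM, where the share of all genes was 6.68%. Leaving out each library in turn gave 9 to 20, with 20 without sh-luc r1 and 18 without sh-up91 r2, where the share of all genes without overlap was 21.99% and 25.17%. In the other 4 such fits it was 11.92% to 14.25%, against 7.07% with all libraries. Leaving out a library can add genes without overlap but cannot remove any. These counts are therefore no check on the count with all libraries. Why the share differed between these fits was not tested. The median log2 difference was 0.024 to 0.081 over the same fits (0.081 without sh-luc r1 and 0.080 without sh-up91 r2), and 33 to 41 cilia genes were higher in sh-up91. Of 438 values of the 37 named members under the alternatives, 31 in 14 genes changed sign, each of them below 0.1 in size. By 1 residual SD of the gene or more 7 values moved, all with the pseudocount of 0.1. Leaving out 1 library cannot move a value that far. No filter, a mean of at least 1 FPKM and the replicate block leave the differences unchanged. The count of moved values therefore bears only on the pseudocount and both scalings. The number of fragments behind each FPKM is unknown, which limits most what can be said of genes under 1 FPKM.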
